A study of Mus musculus with 12 samples.

Results

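The macrophage and myeloid signalling genes described here are 39 mouse genes that encode receptors, adaptors, kinases, complement chains and effector proteins of macrophages and related white blood cells. They were taken as a list of names, and every probe annotated to them on an Illumina mouse bead array was read. Of the 39 genes, 37 were read by at least 1 probe, with 72 probes in all. The levels of Cd68 and Lyn were not analysed here. Of the 37, 31 were among the 10596 genes tested, and Cd14, Fcgr1, Itgam, Spi1, Msr1 and Trem2 were measured but too dim for the test.

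The arrays measured endothelial-enriched RNA flushed with Qiazol from the lumen of carotid arteries of male C57Bl6 mice, 9 weeks old per the labels, whose tissue entry is carotid artery intima. Partial ligation, the tying of 3 of 4 caudal branches, was done on the left carotid artery (LCA) of every mouse and leaves slow, disturbed flow there, while the right carotid artery (RCA) was not touched. The 4 groups are named by treatment and artery (saline or 5Aza, LCA or RCA), with 3 samples each and 3 pooled arteries per sample, taken 7 days after ligation. The 5Aza mice received 5-Aza-2'deoxycytidine, an inhibitor of DNA methyltransferases, at 0.2 mg/kg/day by intraperitoneal injection for 3 weeks, 2 of them before the ligation, and the control mice received saline. Both RCA groups therefore came from operated mice. No group held sham-operated or untied left arteries, so effects of flow, of surgery and of the side cannot be told apart. Samples are numbered as in their titles, and the p-values reflect the spread between pools alone.

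Many receptors of myeloid cells have no signalling tail of their own. They pair with the adaptors Tyrobp or Fcer1g, whose tyrosine motifs (immunoreceptor tyrosine-based activation motifs, ITAMs) are phosphorylated by kinases of the Src family such as Lyn and Fgr and then bind the kinase Syk. Inhibitory receptors such as Lair1 and Fcgr2b carry the opposite kind of motif and recruit phosphatases. Csf1r, the receptor of the growth factor Csf1, keeps macrophages alive, and Spi1 encodes the transcription factor PU.1, on which the myeloid lineage depends. Normal arteries hold resident macrophages, and disturbed flow is known to draw monocytes to the vessel wall.

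In unligated arteries most of the 37 genes were at the edge of detection. Detection of a gene means that at least 1 of its probes had a detection p-value under 0.05 on that array. On the saline RCA arrays 18 of the 37 genes were detected on no array, 5 on 1, 7 on 2 and 7 on all 3. On the 5Aza RCA arrays the counts were 16, 8, 2 and 11. The 13 genes detected on none of the 6 RCA arrays were C1qa, Cd14, Fcgr1, Fcgr2b, Fcgr4, Itgam, Spi1, Lair1, Lilr4b, Ly86, Msr1, Trem2 and Dock10. The 5 genes detected on all 12 arrays of the study were the kinase gene Fes, the tetraspanin Cd53, the actin-binding Coro1a, the pattern receptor Tlr2 and the pleckstrin gene Plek.

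Detection in ligated arteries was wider. Between 31 and 37 of the 37 genes were detected per saline LCA array and between 24 and 31 per 5Aza LCA array, against 7 to 18 on the saline RCA arrays and 11 to 20 on the 5Aza RCA arrays. All 3 saline LCA arrays detected 31 genes, and all 3 5Aza LCA arrays detected 22. Fcgr1, Spi1, Msr1 and Trem2 were detected on no 5Aza LCA array.

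**Figure D1:**
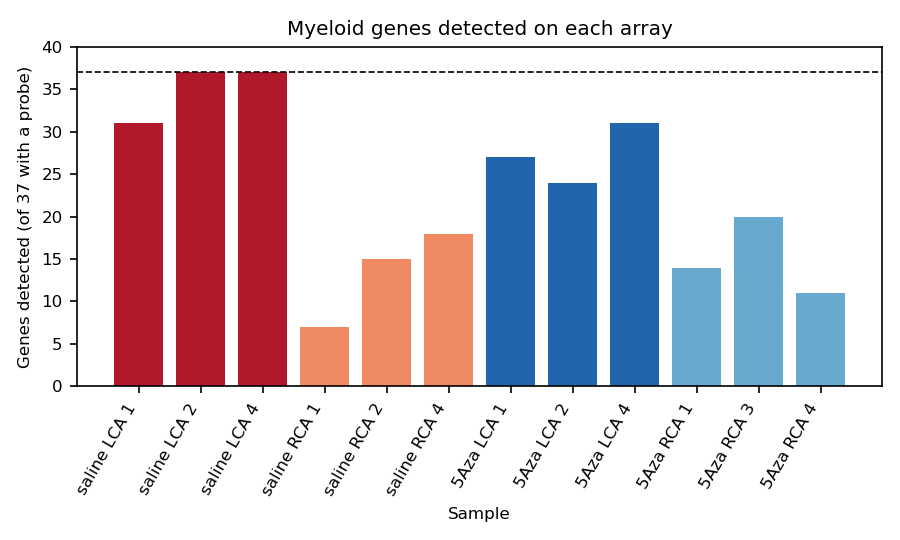
Number of the 37 myeloid genes with a probe (y axis, dashed line at 37) that were detected on each of the 12 arrays (x axis, bars coloured by group). Every LCA bar, from 24 to 37, stands above every RCA bar, from 7 to 20.

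A gene was tested if 1 of its probes was detected on all 3 arrays of at least 1 group. For 19 of the 31 genes only LCA groups met this condition, and for 8 of those (C1qa, Fcgr2b, Lair1, Lilr4b, Fgr, Ly86, Dock8 and Dock10) only saline LCA did. Those 19 had to be brighter in a ligated group, and their differences are given as a description. The other 12 genes (Aif1, Laptm5, Mpeg1, Lyz1, Lyz2, Fcgr3, Fes, Cd52, Cd53, Coro1a, Tlr2 and Plek) were also measured on all 3 arrays of an unligated group.

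One library stood apart. Saline LCA 1 had the lowest level of its group for 29 of the 31 tested genes. The median level of these genes was 6.31 in saline LCA 1, against 8.25 and 8.48 in saline LCA 2 and 4 (normalized log2 intensity, which is the scale of all levels below). Across all genes its correlation with saline LCA 2 was 0.857 and with saline LCA 4 0.856, whereas those 2 samples had a correlation of 0.971. The median level of the 31 genes was 4.27 to 4.59 in the saline RCA samples, 6.02 to 6.78 in the 5Aza LCA samples and 4.34 to 4.85 in the 5Aza RCA samples. The SD of replicates, pooled over these genes, was 1.11 in saline LCA and 0.51 to 0.62 in the other groups, and the model gives each gene a single spread, so p-values of comparisons with saline LCA may be too small.

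**Figure D2:**
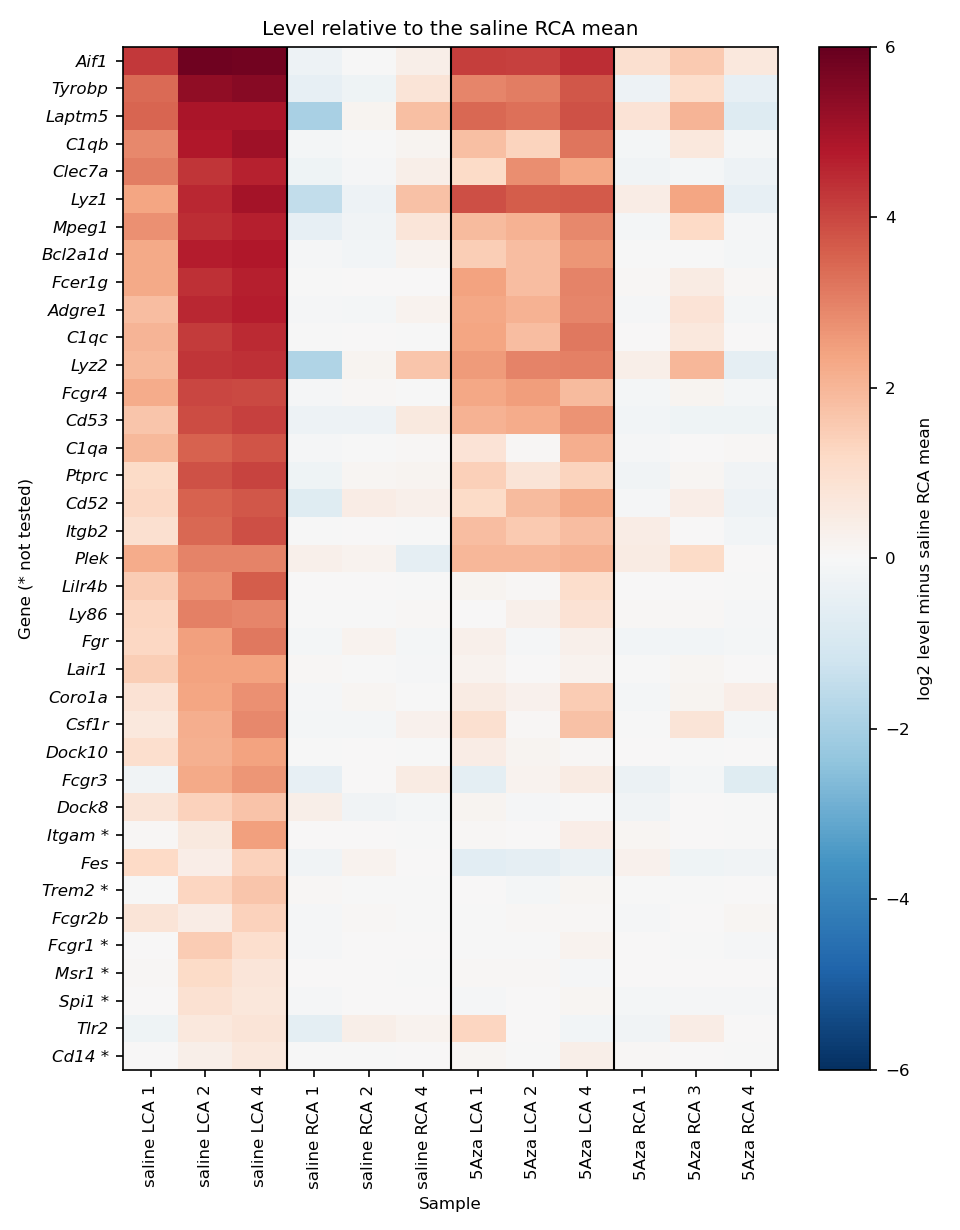
Level of each of the 37 myeloid genes (rows) in each of the 12 samples (columns), as the normalized log2 level minus that gene's mean over the 3 saline RCA samples, with red for higher and blue for lower. Rows are ordered by the saline LCA mean, and an asterisk marks the 6 genes that were not tested. The colour in saline LCA 1 is paler than in saline LCA 2 and 4 in nearly all rows.

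The first comparison, saline LCA against saline RCA, asks which of these genes differed between the ligated and the unligated artery without the drug. Of the 12 genes also measured in an unligated group, 10 rose in the ligated artery, none fell, and Fcgr3 and Tlr2 did not pass the test (limma, adjusted p under 0.05). Among the 10, Fes, Cd53, Coro1a and Plek were measured on all 3 saline RCA arrays, as were Fcgr3 and Tlr2. The others were kept through 5Aza RCA. Mpeg1 was detected on 1 saline RCA array, and Aif1, Laptm5, Lyz1, Lyz2 and Cd52 on 2. The background was 11.5% of the 10596 genes called, 5.29% higher and 6.24% lower. All 19 genes kept through LCA groups alone were also called higher, which the filter favoured, so the count of 29 of 31 is a description. The median log2 fold change of the 31 genes was 3.00, or 2.86 with the 12 genes undetected in saline RCA set at their lower bounds, and that of all genes was -0.05. In bulk RNA, fewer cells of a type and less RNA per cell cannot be told apart.

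Among the adaptors, the level of Tyrobp was 8.09, 10.03 and 10.16 in saline LCA 1, 2 and 4, and 4.21, 4.43 and 5.48 in the saline RCA samples. Tyrobp carries the activating signal of Trem2 and related receptors, and its groups did not overlap, with saline LCA 1 the lowest of the ligated samples. Its log2 fold change was 4.72 (SE 0.57, limma adjusted p = 0.00125), with detection on 1 of the 3 saline RCA arrays. Fcer1g, the gamma chain shared by activating Fc receptors, stood at 6.57, 8.67 and 8.92 in saline LCA and at 4.24, 4.30 and 4.29 in saline RCA. No saline RCA array detected Fcer1g, so the difference is a bound, at least 11.7-fold higher (limma adjusted p = 0.00205).

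The receptor genes that bind antibody, sugars and lipids were next. Fcgr4, an activating receptor for IgG that signals through Fcer1g, had levels of 6.54, 8.30 and 8.27 in saline LCA and 4.22, 4.39 and 4.28 in saline RCA. It was detected on all ligated and no unligated saline arrays, and was at least 9.21-fold higher (limma adjusted p = 0.000931). Clec7a, the receptor for fungal beta-glucans, had levels of 7.53, 8.78 and 9.07 in saline LCA and 4.22, 4.39 and 4.81 in saline RCA. All 3 ligated samples lay above the unligated ones, and the log2 fold change was 3.99 (SE 0.43, limma adjusted p = 0.000836), with Clec7a detected on 1 saline RCA array. Fcgr2b, the inhibitory IgG receptor, was at least 1.61-fold higher (limma adjusted p = 0.03). This rests on the 1 probe that passed the filter. With no filter a brighter probe stood for Fcgr2b, and it was not called (log2 fold change 1.17, limma adjusted p = 0.165).

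Fcgr3, the other activating IgG receptor tested, had levels of 4.89, 7.34 and 7.72 in saline LCA and 4.59, 5.09 and 5.59 in saline RCA. Saline LCA 1 lay inside the unligated range while the other two ligated samples lay above it, and the log2 fold change of 1.56 (SE 0.60) did not pass the test (limma adjusted p = 0.105). Tlr2, a receptor for bacterial lipoproteins, had levels of 4.94, 5.80 and 5.94 in saline LCA and 4.62, 5.52 and 5.41 in saline RCA. Its groups overlapped, and the log2 fold change was 0.38 (SE 0.40, limma adjusted p = 0.571). Adgre1, an adhesion receptor used as a macrophage marker, was at least 11.2-fold higher (limma adjusted p = 0.00612). Csf1r rose by 1.89 on the log2 scale (SE 0.53, limma adjusted p = 0.0418). The integrin chain Itgb2 was at least 6.29-fold higher (limma adjusted p = 0.0148).

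Ly86, a partner of the Toll-like receptor relative Cd180, had levels of 5.54, 7.25 and 7.16 in saline LCA and 4.21, 4.19 and 4.30 in saline RCA. The saline groups of Ly86 did not overlap, and the gene was at least 4.43-fold higher (limma adjusted p = 0.00574). Cd180 itself rose by 2.46 on the log2 scale (limma adjusted p = 0.000611). Lair1, an inhibitory receptor for collagen, had levels of 5.78, 6.72 and 6.73 in saline LCA and 4.38, 4.32 and 4.27 in saline RCA. The 3 ligated samples of Lair1 lay closer together than those of most of the genes, and the difference was at least 3.75-fold (limma adjusted p = 0.000931). Lilr4b, of the leukocyte immunoglobulin-like receptors, had levels of 5.77, 6.97 and 7.87 in saline LCA and 4.23, 4.24 and 4.21 in saline RCA. Lilr4b was at least 5.16-fold higher (limma adjusted p = 0.00585), although its probe may also read the closely related Lilrb4a, which was not checked.

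All 3 chains of complement C1q, the molecule that starts the classical pathway and that macrophages make, were detected on every saline LCA array and on no saline RCA array. C1qb had levels of 7.17, 9.13 and 9.39 in saline LCA and 4.20, 4.26 and 4.45 in saline RCA. C1qb was at least 16.7-fold higher (limma adjusted p = 0.0021), the largest bound among the 12 genes given as one. C1qc was at least 9.79-fold higher (limma adjusted p = 0.00427) and C1qa at least 7.26-fold (limma adjusted p = 0.00651).

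Of the kinases, Fgr, a Src-family kinase of phagocytes, had levels of 5.64, 6.84 and 7.56 in saline LCA and 4.29, 4.59 and 4.29 in saline RCA. Its groups did not overlap, and it rose by 2.29 on the log2 scale (SE 0.37, limma adjusted p = 0.00591), detected on 1 saline RCA array. Fes, a tyrosine kinase outside the Src family, had levels of 6.60, 5.81 and 6.80 in saline LCA and 5.22, 5.62 and 5.44 in saline RCA. Here saline LCA 2 and not saline LCA 1 was the lowest of the ligated samples, and Fes rose by 0.97 (SE 0.26, limma adjusted p = 0.0344). The second Fes probe gave a log2 fold change of 0.08 in a fit over all probes (limma adjusted p = 0.921), so the 2 probes disagree.

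Genes of the actin cytoskeleton included the largest fold change of the 31. Aif1, an actin-bundling protein of macrophages, had levels of 8.80, 10.41 and 10.35 in saline LCA and 4.28, 4.53 and 4.90 in saline RCA. The gap between the groups of Aif1 was wider than the spread in either, and the log2 fold change was 5.28 (SE 0.39, limma adjusted p = 6.75e-05). Plek, a protein kinase C substrate of platelets and white blood cells, had levels of 7.39, 8.12 and 8.10 in saline LCA and 5.46, 5.35 and 4.62 in saline RCA. Plek was detected on all 12 arrays and rose by 2.73 (SE 0.31, limma adjusted p = 0.000977).

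The guanine nucleotide exchange factors Dock8 and Dock10 switch on small GTPases that steer cell migration. Dock8 had levels of 5.27, 5.88 and 6.21 in saline LCA and 4.83, 4.28 and 4.36 in saline RCA, and rose by 1.29 (SE 0.24, limma adjusted p = 0.0106). Dock10 had levels of 5.26, 6.36 and 6.63 in saline LCA and 4.22, 4.26 and 4.23 in saline RCA. No unligated saline array detected Dock10, which was at least 2.99-fold higher (limma adjusted p = 0.00528). Coro1a, which binds actin filaments in leukocytes, rose by 1.99 (SE 0.44, limma adjusted p = 0.019), and by 3.53 by its second kept probe.

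Among effectors, Mpeg1, a pore-forming protein of phagocytes, had levels of 7.45, 9.16 and 9.40 in saline LCA and 4.23, 4.48 and 5.43 in saline RCA. The groups of Mpeg1 did not overlap, and it rose by 3.96 (SE 0.53, limma adjusted p = 0.00218). Lyz1, a lysozyme, had levels of 8.19, 10.35 and 10.82 in saline LCA and 4.36, 5.51 and 7.57 in saline RCA. Its saline RCA samples were more than 3 log2 units apart, so the rise of 3.97 carried an SE of 0.89 (limma adjusted p = 0.0203). Lyz2 rose by 3.55 (SE 0.88, limma adjusted p = 0.0292), and whether the probes tell the near-identical Lyz1 and Lyz2 apart was not checked.

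Bcl2a1d, which protects leukocytes from cell death, had levels of 6.60, 9.07 and 9.16 in saline LCA and 4.27, 4.20 and 4.58 in saline RCA. It rose by 3.93 (SE 0.55, limma adjusted p = 0.0029), and its probes may also read other copies of the Bcl2a1 family. The leukocyte membrane proteins all rose, with log2 fold changes of 4.42 for the lysosomal Laptm5 (limma adjusted p = 0.0122), 3.22 for the tetraspanin Cd53 (limma adjusted p = 0.00593), 3.00 for Ptprc, the phosphatase CD45 (limma adjusted p = 0.0123), and 2.85 for the surface glycoprotein Cd52 (limma adjusted p = 0.0154).

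The groups did not overlap for 29 of the 31 genes, beside a background of 13.3% of all genes with saline LCA wholly above saline RCA. For 27 of the 31, every saline LCA sample also lay above all 6 RCA samples, beside 7.8% of all genes. The filter favoured both counts, as 19 of the 31 genes were kept through LCA groups alone. Without saline LCA 1, 36 of 37 genes then tested rose, with 15.8% of 11219 genes called higher. This count too was favoured by the filter, for genes kept through the remaining saline LCA samples alone. In that fit the log2 fold changes of the 17 genes given here in every sample besides Fcgr3 and Tlr2 ran from 0.87 for Fes to 5.80 for Aif1. A fit restricted to the saline groups called 12 of the 31 genes, beside 129 of 10596 genes called. Without saline LCA 4, 18 passed, beside 196 of 10762 genes. Without saline RCA 1, 19 passed, beside 329 of 10742 genes. With all samples fitted, 1221 of 10596 genes were called.

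**Figure D3:**
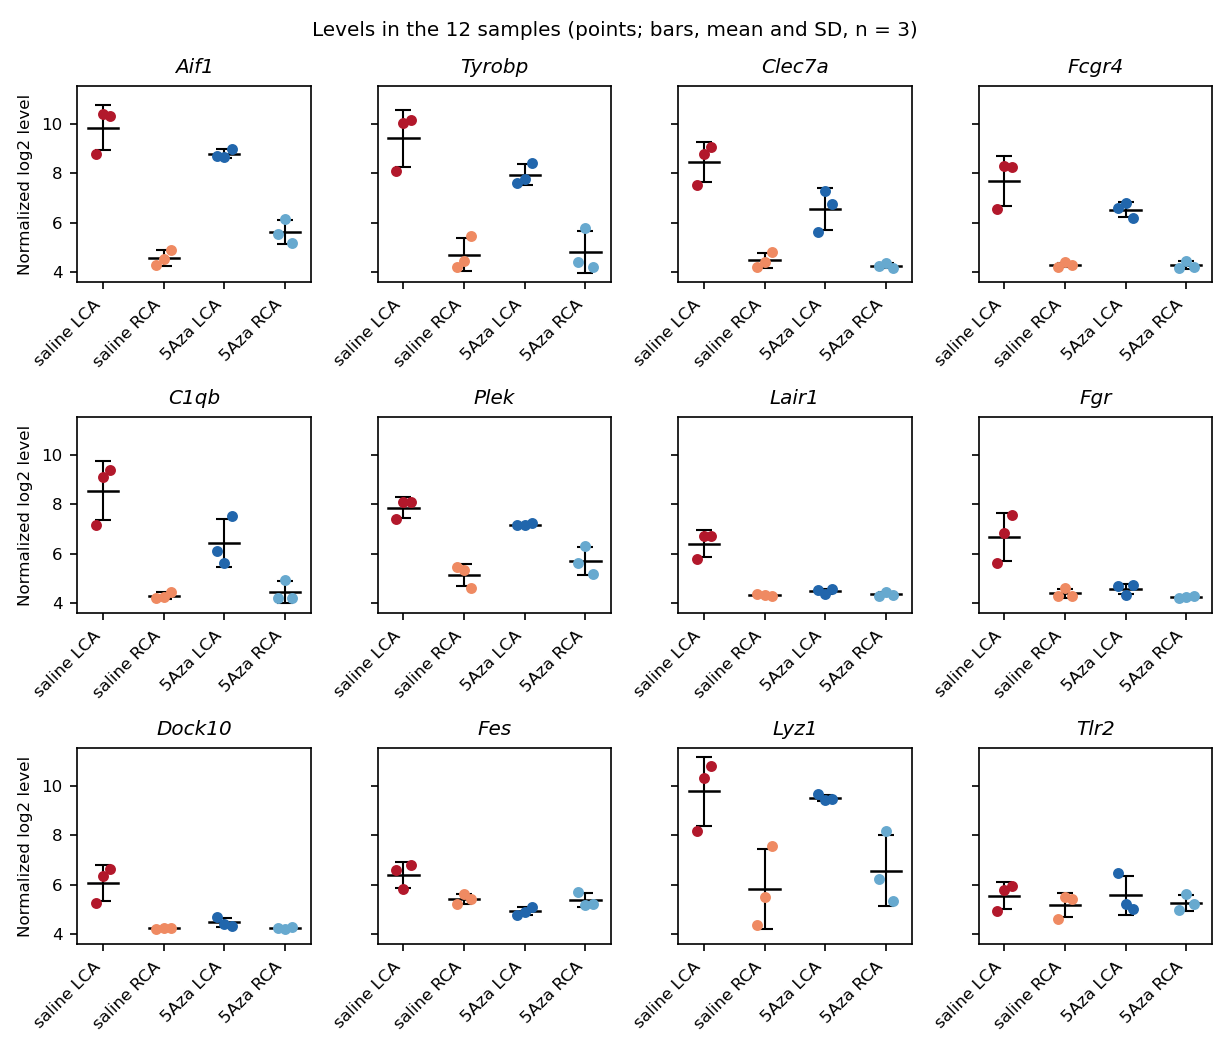
Normalized log2 level (y axis) of 12 of the myeloid genes in the 4 groups (x axis). Points are the samples and black bars the mean and SD of 3 samples. For Aif1, Tyrobp, Clec7a and Fcgr4 both LCA groups stand above both RCA groups, for Lair1 and Dock10 the 5Aza LCA samples lie at 4.32 to 4.67, near the RCA samples, and for Tlr2 the groups overlap.

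The 6 genes that missed the filter were detected on 2 of the 3 saline LCA arrays and on no RCA array. Spi1 had levels of 4.30, 5.20 and 4.98 in saline LCA and 4.24, 4.31 and 4.32 in saline RCA. Trem2, a lipid receptor that signals through Tyrobp, had levels of 4.35, 5.63 and 6.00 against 4.43, 4.32 and 4.32. Itgam, the integrin partner of Itgb2, had levels of 4.30, 4.82 and 6.67 against 4.25, 4.23 and 4.21. In each of these genes saline LCA 1 lay within the range of the 6 unligated samples, and saline LCA 2 and 4 lay above it. Fcgr1, the high-affinity IgG receptor, Msr1, a scavenger receptor, and Cd14, the coreceptor for bacterial lipopolysaccharide, were likewise higher in saline LCA 2 and 4 than in every RCA sample. With no filter on dim probes, where 19057 genes were tested and 3.23% called, 23 of the 37 genes passed, and these 6 had log2 fold changes from 0.32 (Cd14, limma adjusted p = 0.232) to 1.03 (Itgam, limma adjusted p = 0.276).

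Spi1 binds DNA at purine-rich sites built on the letters GAGGAA. Promoter windows of 250 bases before to 50 after the gene start, from RefSeq on the build GRCm38.p6, were found for 29 of the genes and searched for GAGGAA on both strands. The letters occurred in a window of 18 of these genes, or 62.1%, against 31.3% of 27025 genes in the table. Cd68, whose level was not analysed here, is among the 29 and among the 18. GAGGAAGT, which contains GAGGAA and so overlaps it, occurred for 4 of the 29, or 13.8%, against 3.69% of all genes. A match of letters is a description and not a binding site, and no test was made. Of the 4 genes that passed the test in both treatments (below), 3 had an entry, and their windows are shown here on the gene's strand because these genes moved together, with the match in capitals, as GAGGAA or its reverse complement TTCCTC.
Aif1, chr17:35176003-35176302, minus strand: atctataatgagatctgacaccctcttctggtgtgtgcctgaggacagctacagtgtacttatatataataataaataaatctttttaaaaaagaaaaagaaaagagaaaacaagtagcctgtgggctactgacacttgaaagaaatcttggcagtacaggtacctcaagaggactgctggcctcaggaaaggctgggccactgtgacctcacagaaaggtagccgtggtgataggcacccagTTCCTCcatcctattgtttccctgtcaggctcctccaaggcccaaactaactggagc
Clec7a, chr6:129472730-129473029, minus strand, 1 of its 2 windows: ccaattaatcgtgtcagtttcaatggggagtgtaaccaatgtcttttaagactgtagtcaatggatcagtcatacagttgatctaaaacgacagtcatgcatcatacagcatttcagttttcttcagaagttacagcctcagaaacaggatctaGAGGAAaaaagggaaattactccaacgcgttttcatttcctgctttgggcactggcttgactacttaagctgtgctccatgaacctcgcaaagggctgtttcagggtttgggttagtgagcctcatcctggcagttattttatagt
Fcgr4, chr1:171018676-171018975, plus strand: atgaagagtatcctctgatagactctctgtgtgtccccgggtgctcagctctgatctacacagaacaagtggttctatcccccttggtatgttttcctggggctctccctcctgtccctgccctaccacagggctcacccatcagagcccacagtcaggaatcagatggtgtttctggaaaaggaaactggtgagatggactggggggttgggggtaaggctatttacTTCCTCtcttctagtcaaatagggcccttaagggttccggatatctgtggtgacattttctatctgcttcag
The match began 7 bases before the start in Aif1, 96 in Clec7a and 22 in Fcgr4. Tyrobp, the other of the 4, is named only.

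The 4 genes with the longer match were C1qc, Fcgr4, Cd53 and Bcl2a1d. To compare the letters around it, 30 bases are given on the strand that reads GAGGAAGT, with the match in capitals.
C1qc, chr4:136893091-136893120, plus strand: tgtgccaaaatGAGGAAGTgtctgccgtcc
Fcgr4, chr1:171018891-171018920, minus strand: tgactagaagaGAGGAAGTaaatagcctta
Cd53, chr3:106790125-106790154, plus strand: gcgagaagagtGAGGAAGTgagactgagtg
Bcl2a1d, chr9:88731936-88731965, minus strand: ctgaatcagaaGAGGAAGTggtgtgttgct
In Bcl2a1d the match lies on the gene's own strand, and in the other genes of this set on the opposite strand. All 4 rose in the ligated artery under saline, as did 29 of the 31 tested genes, so this does not set them apart.

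The next comparison, 5Aza LCA against 5Aza RCA, asks the same question in mice that received the drug. Aif1, Tyrobp, Clec7a and Fcgr4 rose and none of the other 27 tested genes passed, beside a background of 0.453% of all genes called and 0.236% called higher and 0.217% lower. Of the 12 genes also measured in an unligated group, Aif1 was the 1 called. The median log2 fold change of the 31 genes was 1.67, against -0.02 for all genes. For 22 of the 31, every 5Aza LCA sample lay above every 5Aza RCA sample, beside 10.9% of all genes. The filter favoured this count for genes kept through 5Aza LCA and no RCA group.

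Aif1 stood at 8.71, 8.67 and 9.00 in 5Aza LCA 1, 2 and 4 and at 5.54, 6.15 and 5.19 in 5Aza RCA 1, 3 and 4. The 3 ligated samples lay within 0.4 log2 units of each other, and the log2 fold change was 3.17 (SE 0.39, limma adjusted p = 0.00706). The other kept probes of Aif1 gave 1.06 and 2.09, neither called in the fit over all probes, and with the mean of its probes Aif1 was not called (2.11, limma adjusted p = 0.112). Tyrobp stood at 7.63, 7.79 and 8.42 in 5Aza LCA and at 4.39, 5.78 and 4.22 in 5Aza RCA, a log2 difference of 3.15 (SE 0.57, limma adjusted p = 0.0424). In Tyrobp the unligated 5Aza RCA 3 stood above its group and was the 1 unligated 5Aza array that detected the gene.

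Fcgr4 stood at 6.60, 6.80 and 6.21 in 5Aza LCA and at 4.18, 4.46 and 4.20 in 5Aza RCA, at least 4.08-fold higher (limma adjusted p = 0.0392). Clec7a stood at 5.63, 7.28 and 6.78 in 5Aza LCA and at 4.24, 4.35 and 4.15 in 5Aza RCA, at least 4.17-fold higher (limma adjusted p = 0.0451). Neither gene was detected on a 5Aza RCA array, and in both the ligated and unligated samples were separate. In the authors' own normalization 1 gene passed, beside 58 of 10596 genes. None passed without 5Aza RCA 1, beside 4 of 10817 genes called. Without saline LCA 1, 15 of 37 passed (1.4% of all genes then called higher). Without any 1 of the other 10 samples 1 or 2 passed, beside 10 to 27 of all genes.

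Among genes that did not pass, Plek had levels of 7.15, 7.15 and 7.23 in 5Aza LCA and 5.64, 6.31 and 5.18 in 5Aza RCA, without overlap (log2 fold change 1.47, SE 0.31, limma adjusted p = 0.0742). Cd53 had a log2 fold change of 2.56 (limma adjusted p = 0.0644). Fcer1g, with levels of 6.68, 6.14 and 7.24 against 4.37, 4.77 and 4.34, had one of 2.19 (SE 0.50, limma adjusted p = 0.09). C1qb, with levels of 6.11, 5.64 and 7.53 against 4.20, 4.95 and 4.20, had one of 1.98 (SE 0.57, limma adjusted p = 0.184). In Fcer1g and C1qb the ligated samples again lay above the unligated ones.

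For Lair1, Csf1r, Fcgr2b, Fcgr3, Ly86, Coro1a, Tlr2 and Dock8 the 5Aza LCA and 5Aza RCA samples overlapped by the brightest probe. The second kept probe of Coro1a did not overlap, at 7.00, 6.52 and 7.93 in 5Aza LCA and 4.69, 4.37 and 4.26 in 5Aza RCA (log2 fold change 2.71, limma adjusted p = 0.0558 over all probes). Fes was the 1 gene whose 5Aza LCA samples, at 4.79, 4.89 and 5.09, lay below all 5Aza RCA samples, at 5.70, 5.18 and 5.23 (log2 fold change -0.45, SE 0.26, limma adjusted p = 0.508). The second Fes probe gave 0.37, without a call.

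**Figure D4:**
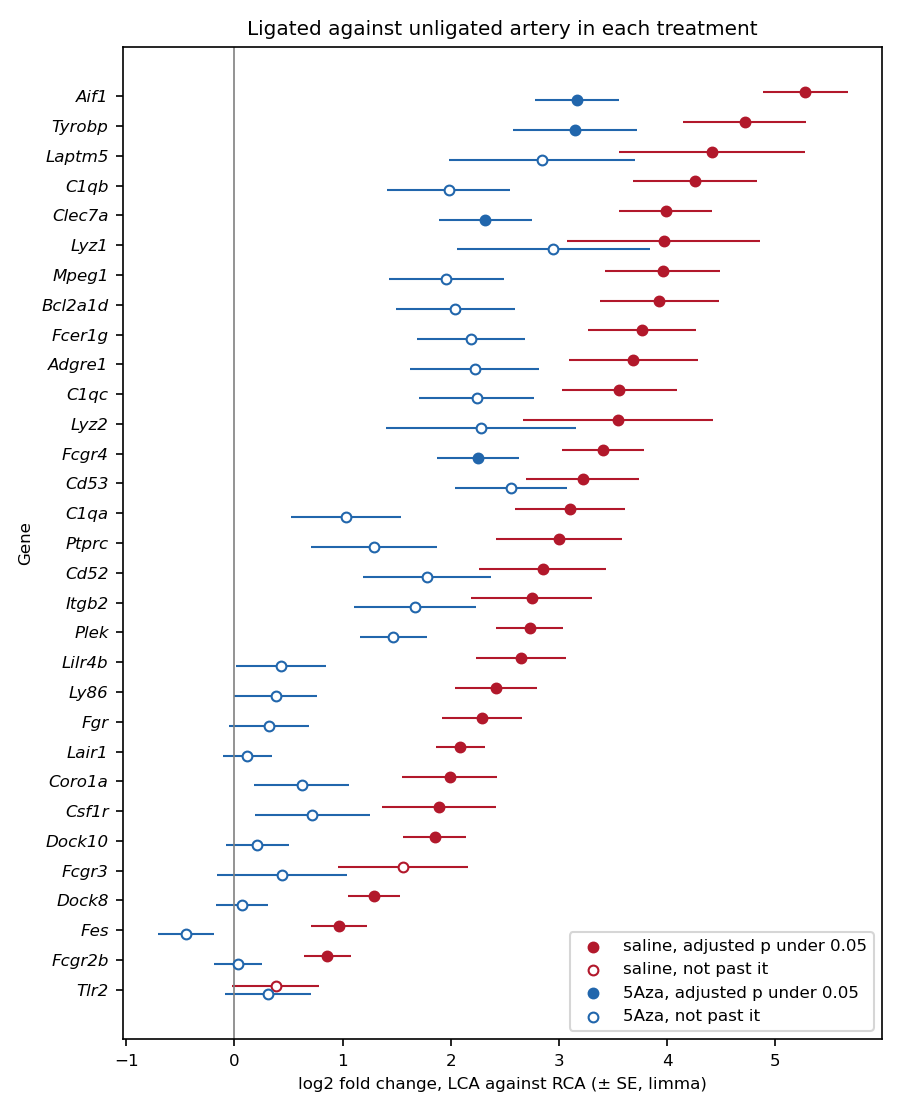
Log2 fold change of the ligated against the unligated artery (x axis, points with SE from limma) for the 31 tested myeloid genes (y axis), under saline in red and under 5Aza in blue. Filled points have an adjusted p under 0.05. The values of genes that no unligated array of a treatment detected are fitted values and not bounds. Of the red points 29 are filled and of the blue points 4, and each blue point lies to the left of the red point of its gene.

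Ligated arteries were then compared between treatments, 5Aza LCA against saline LCA. Lair1, Fgr, Fes, Dock10, Dock8, Ly86 and Lilr4b fell and no gene of the 31 rose, beside a background of 0.462% of all genes called and 0.17% called lower. All of the 7 but Fes were tested because saline LCA, the group in which they are high, detected them, so a lower level in 5Aza LCA was favoured by the filter and the count is a description. Genes that did not pass had values as large, among them C1qb (-2.14, limma adjusted p = 0.102), C1qa (-2.07, limma adjusted p = 0.0949) and Mpeg1 (-1.66, limma adjusted p = 0.14). The median log2 fold change of the 31 genes was -1.28, with 30 of 31 negative, and that of all genes was 0.04. Of the 12 genes also measured in an unligated group, Fes alone was called.

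Lair1 stood at 4.52, 4.36 and 4.55 in 5Aza LCA, below all 3 saline LCA samples given above. The gene fell by 1.93 on the log2 scale (SE 0.23, limma adjusted p = 0.00972) and was detected on 1 of the 3 5Aza LCA arrays. Fgr stood at 4.68, 4.32 and 4.71 and fell by 2.11 (SE 0.37, limma adjusted p = 0.0374). Fes fell by 1.48 (SE 0.26, limma adjusted p = 0.0374) by the brighter probe, with -0.35 by the second probe (limma adjusted p = 0.68 over all probes).

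Dock10 stood at 4.67, 4.41 and 4.32 in 5Aza LCA and fell by 1.62 (SE 0.29, limma adjusted p = 0.0418). Dock8 stood at 4.64, 4.40 and 4.47 and fell by 1.28 (SE 0.24, limma adjusted p = 0.0478). Both lay in the range of the unligated arteries or within 0.4 log2 units of it. Ly86 stood at 4.28, 4.53 and 5.10 and fell by 2.01 (SE 0.38, limma adjusted p = 0.0482). Lilr4b stood at 4.41, 4.30 and 5.27 and fell by 2.21 (SE 0.42, limma adjusted p = 0.0498), with 5Aza LCA 4 the highest of its group in both genes.

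In 10 of the 31 genes (the 7 called, Clec7a, Fcgr2b and Plek) every 5Aza LCA sample lay below every saline LCA sample, beside 8.02% of all genes, and in none did every one lie above, beside 10.3%. The filter favoured the fall in genes kept through saline LCA alone. Apart from Tlr2, the other genes differed from the 10 by where saline LCA 1 stood. Every 5Aza LCA sample lay below saline LCA 2 and 4 in 30 of the 31 genes, beside 22.6% of all genes, whereas saline LCA 1 lay within the range of the 5Aza LCA samples in 15, below it in 6 and above it in 10. Aif1, for example, was 8.80 in saline LCA 1 and 8.67 to 9.00 in 5Aza LCA, and its log2 fold change of -1.06 (SE 0.39) did not pass (limma adjusted p = 0.187). Its other kept probes gave -2.85 and -2.20 (limma adjusted p = 0.0772 and 0.12 over all probes).

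The count of falling genes rested on single libraries. Without saline LCA 1, 31 of 37 genes fell, with 10.4% of 11219 genes called lower. The filter, then met through saline LCA 2 and 4, favoured this count too. Of the 17 genes given in every sample 15 were called, Lyz1 at -1.05 (limma adjusted p = 0.441) and Plek at -0.93 (limma adjusted p = 0.061) being the exceptions. Without saline LCA 4 or without 5Aza LCA 2, no gene of the 31 passed, beside 0 of 10762 and 2 of 10746 genes called. Without any 1 of the other 9 samples 1 gene did, beside 4 to 33 of all genes. Under the authors' own normalization 1 passed, beside 58 of 10596 genes. A fit of the 2 LCA groups by themselves called none of the 31 and none of all genes.

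The lysozyme probes varied. Lyz1 was at 9.67, 9.43 and 9.49 in 5Aza LCA, inside the saline LCA range (log2 fold change -0.25, SE 0.89, limma adjusted p = 0.912), and its other kept probes gave -1.37 and 0.80. Lyz2 had a log2 fold change of -0.69 (limma adjusted p = 0.711), with -0.63 and -2.25 by its other kept probes. For Tlr2 the value was 0.01 (limma adjusted p = 0.994). Of the 6 genes not tested, all had lower means in 5Aza LCA than in saline LCA, with log2 differences of -0.20 for Cd14 to -0.97 for Trem2 when no filter was set, and none passed.

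In 5Aza LCA, 20 of the 31 genes stood above all 6 RCA samples in every sample, beside 6.21% of all genes, among them Aif1, Tyrobp, Laptm5, C1qb, C1qc, Mpeg1, Clec7a, Adgre1 and Fcer1g. The other 11 did not, and these were C1qa, Csf1r, Fcgr2b, Fcgr3, Lair1, Fgr, Fes, Ly86, Coro1a, Tlr2 and Dock8. Of the 7 genes that fell, 5 are among these 11, and Lilr4b and Dock10 are not. The filter favoured the count of 20 for genes kept through 5Aza LCA and no RCA group.

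Between unligated arteries, 5Aza RCA against saline RCA, none of the 31 genes and none of the 10596 passed (limma), so the background was 0%. At an unadjusted p under 0.05 there was 1 of the 31, Aif1, with a log2 difference of 1.06 (SE 0.39, limma adjusted p = 0.843). All 3 5Aza RCA samples of Aif1, at 5.19 to 6.15, lay above the saline RCA samples, at 4.28 to 4.90. The other kept probes of Aif1 gave 0 and 0.26. Plek had a log2 difference of 0.57 (SE 0.31, limma adjusted p = 0.947) and Lyz1 one of 0.76 (SE 0.89), both with overlapping groups. In 2 of the 31 genes the 5Aza RCA samples lay wholly above the saline RCA samples and in none wholly below, beside 7.38% and 6.17% of all genes. The lowest value was -0.40, in Fcgr3, and the median over the 31 genes was 0.03.

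Whether the flow difference itself differed between treatments was tested as an interaction of both factors. It passed for none of the 31 genes and for none of all genes in limma, a background of 0%. An unadjusted p under 0.05 was seen in 17 of the 31, and the share of all genes there was not counted. All 31 estimates were negative, with a median of -1.48, against 0.04 for all genes. For the 8 genes kept through saline LCA alone the filter favoured a negative value, so these counts are a description. The 12 genes also measured in an unligated group ran from -2.12 to -0.07. The smallest p-values were those of Lair1 (-1.97, SE 0.33, limma adjusted p = 0.229), Dock10 (-1.63, SE 0.40, limma adjusted p = 0.346) and Fes (-1.42, SE 0.36, limma adjusted p = 0.372). Lair1 and Dock10 were detected on no RCA array and were tested through saline LCA alone, so their values are fitted ones that the filter favoured. Without saline LCA 1 the interaction passed for 30 of 37 genes, all negative, beside 6.03% of 11219 genes called so. Lair1 was then at -2.26, Dock10 at -2.03 and Fes at -1.32. For genes kept through the remaining saline LCA samples alone, the filter favoured a negative value, so this count too is a description. Without any 1 of the other samples the interaction passed for none. The saline samples enter this test, the saline comparison and the comparison of ligated arteries alike, so the 3 results are not independent.

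Over all 21979 probes kept, 47 of the 72 probes of these genes were fitted one by one. Under saline 43 of the 47 rose, beside 8.24% of probes called. In the 5Aza flow comparison 2 rose, beside 0.155%, and between ligated arteries 3 fell, beside 0.191%. These shares of all probes count both directions. Many of the 47 probes were kept through LCA groups alone, which favoured the counts. Of 11 genes with more than 1 kept probe, 9 had every probe called higher under saline, and Fes and Lyz1 did not. The fold changes of the probes of a gene differed by up to 3.70 log2 units, in Lyz1, where 1 probe gave 0.27 and another 3.97, and by 2.64 in Bcl2a1d.

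Partners of these genes were counted from lists drawn up by role. Of 13 tested genes of ITAM signalling and its actin machinery, 11 rose under saline, 1 fell and 1 did not pass, with a median log2 fold change of 1.47. For this and the other lists the background is that given above, 5.29% of all genes called higher and 6.24% lower, and many of their genes too were kept through LCA groups. Nckap1l, a subunit of the complex that drives actin branching in blood cells, had levels of 6.59, 7.85 and 8.00 in saline LCA and 4.25, 4.20 and 4.30 in saline RCA and was at least 7.89-fold higher (limma adjusted p = 0.0014). Bcl10, which links these receptors to NF-kappaB, rose by 1.47 (limma adjusted p = 0.0114), Syk was at least 1.51-fold higher (limma adjusted p = 0.0188) and the adaptor Fyb at least 5.34-fold (limma adjusted p = 0.0233). Plcg2, the phospholipase downstream of Syk, moved the other way. It had levels of 7.26, 5.86 and 5.68 in saline LCA and 7.81, 7.73 and 7.27 in saline RCA, and fell by 1.34 (limma adjusted p = 0.0324), with saline LCA 1 just under the unligated range.

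Of 11 inhibitory receptors and phosphatases, 6 rose under saline and none fell. Ptpn6, a phosphatase that some inhibitory receptors recruit, had levels of 5.92, 6.58 and 6.68 in saline LCA and 4.23, 4.27 and 4.36 in saline RCA. Its levels were 5.39, 5.22 and 5.34 in 5Aza LCA and 4.28, 4.21 and 4.21 in 5Aza RCA. No sample of the saline LCA group overlapped with 5Aza LCA, and neither ligated group overlapped with an unligated one. Ptpn6 was at least 3.71-fold higher in the ligated artery under saline (limma adjusted p = 0.000442), at least 1.76-fold under 5Aza (limma adjusted p = 0.0424), and fell by 1.07 in 5Aza LCA against saline LCA (limma adjusted p = 0.0478). Lst1, a small membrane protein of leukocytes, was at least 5.26-fold higher under saline (limma adjusted p = 0.0107). Lilrb4a rose by 2.57 (limma adjusted p = 0.0188) and the sialic acid receptor Cd33 by 1.19 (limma adjusted p = 0.0274).

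Of 7 genes of growth factor signalling and myeloid transcription, 6 rose under saline, among them the transcription factors Irf5 (2.63, limma adjusted p = 0.0246), Ikzf1 (1.35, limma adjusted p = 0.0313) and Cebpb (1.18, limma adjusted p = 0.0413) and the receptor chain Csf2ra (1.86, limma adjusted p = 0.0287). Csf1, the ligand of Csf1r, had levels of 8.93, 8.37 and 8.05 in saline LCA and 8.72, 8.41 and 8.39 in saline RCA, with overlap and a log2 difference of -0.05 (SE 0.28, limma adjusted p = 0.918). Of 10 Toll-like receptor genes and partners, 4 rose and none fell. Beside Cd180 these were Tlr1, at least 1.75-fold higher (limma adjusted p = 0.025), Tlr13, at least 1.43-fold (limma adjusted p = 0.0344), and the adaptor Tirap, which rose by 0.89 (limma adjusted p = 0.0491).

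Of 9 other complement genes, 3 rose under saline and none fell. These were properdin, Cfp, which stabilises the alternative pathway (2.56, limma adjusted p = 0.0106), the anaphylatoxin receptor C3ar1 (2.47, limma adjusted p = 0.0298) and the complement receptor integrin Itgax, at least 4.49-fold higher (limma adjusted p = 0.0299). Under 5Aza no gene of the ITAM, growth factor, Toll-like or complement lists passed in the flow comparison, and between ligated arteries Ptpn6 was the 1 gene of the 5 lists that passed. The complement list had a median log2 fold change of 1.07 between ligated arteries, against -1.13 for the ITAM list, -0.63 for the inhibitory list, -0.86 for the growth factor list and -0.70 for the Toll-like list. Serping1, the C1 inhibitor, and Cfb, factor B, had the largest positive values, 1.81 (limma adjusted p = 0.113) and 1.57 (limma adjusted p = 0.144), neither past the test.

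The summed linear level of the 37 genes was 4256 to 16300 in saline LCA, 809.6 to 1581 in saline RCA, 4307 to 5723 in 5Aza LCA and 926.1 to 1913 in 5Aza RCA. Marker lists of other cells were summed in the same way. The 4 monocyte markers with a probe (of 6) summed to 91.12 to 477.3 in saline LCA, with 2 to 4 detected, and to 78.36 to 92.32 in the other groups, with 0 to 3 detected. Plac8, which inflammatory monocytes express, was at 7.38 and 7.14 in saline LCA 2 and 4 and at 4.44 in saline LCA 1, close to the other groups. The 9 neutrophil markers with a probe (of 10) summed to 235.2 to 852.5 in saline LCA, with 4 to 8 detected, and to 174 to 320.8 in the other groups, with 0 to 3 detected. S100a9, a calcium-binding protein abundant in neutrophils, was at 6.13, 8.99 and 9.00 in saline LCA, and at 4.19, 7.14 and 4.86 in 5Aza LCA, and was detected on no RCA array. The neutrophil granule gene Camp was detected on no LCA array, and Ly6c2 and Ly6g were not analysed here.

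Other blood and vessel cells had markers of their own. T cell markers summed to 169.3 to 224 in saline LCA and to 154.3 to 198.9 in the other groups, and the 3 B cell markers with a probe to 61.2 to 75.14 against 57.62 to 63.66. Dendritic cell markers summed to 305 to 455 in saline LCA and 314 to 459.7 elsewhere, and mast cell markers to 123.5 to 173.9 and 116.9 to 183.8. Undetected markers add background to these sums. Of 7 T cell markers 4 were detected on saline LCA 2 and also on saline LCA 4, against 1 or 2 on each other array. For B cell markers the counts were 2 of 3 against 0, and for dendritic cell markers 5 of 6 against 2 or 3. Mast cell markers had 1 or 2 of 6 detected in saline LCA and 0 to 4 elsewhere. Of 12 endothelial markers 11 or 12 were detected on every array. They summed to 7256 to 7490 in saline LCA, 9186 to 9802 in saline RCA, 7735 to 8395 in 5Aza LCA and 9686 to 9834 in 5Aza RCA, without overlap between ligated and unligated arteries. Red cell and platelet markers, which bear on Plek, summed to 630.4 to 1848, 413.2 to 501.6, 1979 to 6898 and 400.1 to 2241 in the same order of groups. Smooth muscle markers summed to 2501 to 2738 in saline LCA and 1405 to 2026 elsewhere. Fibroblast markers summed to 1585 to 2898 in saline LCA and, without overlap, to 3248 to 4076 in 5Aza LCA. In saline RCA they summed to 2403 to 3251 and in 5Aza RCA to 2615 to 3246. Adipocyte markers summed to 514.2 to 1797 in 5Aza LCA and 115.7 to 475.3 elsewhere. The part of these cells in the results above was not tested.

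**Figure D5:**
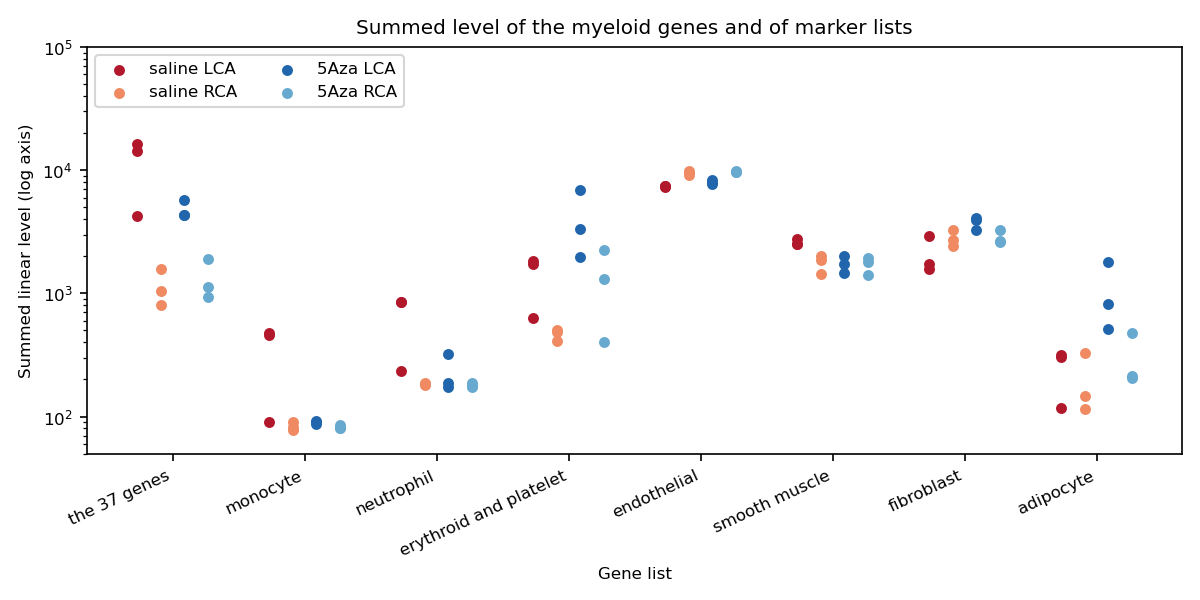
Summed linear level on a log axis (y axis) of the 37 myeloid genes and of 7 marker lists (x axis), with 1 point for each of the 12 samples, coloured by group. Sums of different lists cannot be compared with each other. The monocyte sums of 2 saline LCA samples reach 477.3 while all other samples stay at or below 92.32.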

How the data were processed

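The authors deposited a table of unprocessed bead intensity values and detection p-value columns, covering 45281 probes in 12 samples, per the file headers, exported with GenomeStudio 2010.3 per the submitters' processing notes. The authors' normalized intensity table, which by its values is a quantile normalization of the raw intensities, served as an alternative. The series text names 2 microarrays, and their sample assignment is not given in the sources used here.

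Intensities were background-corrected and quantile-normalized with neqc (offset 16) in limma 3.58.1 (R 4.3.3), which returns log2 levels. Between 21443 and 23251 probes were detected per array. Probes with a detection p-value under 0.05 on all 3 arrays of at least 1 group were kept (21979), and the brightest probe stood for each gene. Of 45281 probes, 34885 had 1 symbol, 18 several and 10378 none, and 34807 matched the reference table that supplied current symbols. The linear model held a mean for each group over the 12 samples, and 5 contrasts were tested, two-sided, with Benjamini-Hochberg adjustment over all genes of each contrast. The number of arrays limits the precision. A gene with any detected probe was taken as detected. For a gene undetected throughout the dimmer group, the difference is given as a bound: the brighter group's mean against the higher, on each array, of the dim probe's level and the lowest level among detected probes.

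The genes and lists were chosen with earlier results of these data known. Levels in every sample are given for the 10 genes with the smallest adjusted p under saline and those called in another comparison, or, where none was called, the 3 with the smallest p, and for Fcgr3 and Tlr2, chosen after their values were seen. Of each partner list, up to 4 called genes with the smallest adjusted p are named; further ones were chosen after their values were seen. The labels and the series text differ on age, and titles and descriptions on replicate numbers, and titles were used. Nothing in the sources used here says that equal numbers are the same mice, so no pairing was assumed. The fits were tested on simulated data.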

Additional observations from a re-analysis of the deposited data

Results flagged for a closer look

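The flow difference of Fes ran in opposite directions in the 2 treatments. Its log2 fold change was 0.97 under saline, with every saline LCA sample above every saline RCA sample, and -0.45 under 5Aza, with every 5Aza LCA sample below every 5Aza RCA sample. The test of the difference between treatments gave -1.42 (limma adjusted p = 0.372), which did not pass. The second Fes probe gave 0.08 and 0.37.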

How the results depend on the processing

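Across 12 alternatives and 12 fits without 1 sample, 1101 of 1316 comparisons with the values given here kept their direction and side of the threshold, 180 fell below it, 31 passed it and 4 reversed. Flow under saline, with 29 of the genes called, called 4 of the 5 left by a filter for detection on all 12 samples, 12 with only the compared groups fitted, and 18 to 36 without 1 sample (18 without saline LCA 4, 19 without saline RCA 1). Flow under 5Aza, with 4 called, called 1 with the authors' normalized values, with offset 50, without background correction and without a filter, 0 with the filter on all 12 samples, 11 with array weights, 7 with only the compared groups, and 0 to 15 without 1 sample. The comparison of ligated arteries, with 7 called, called 1 with the authors' values, without background correction and without a filter, 2 with offset 50, 0 with the filter on all 12 samples, 26 with array weights, 0 with only the compared groups, and 0 to 31 without 1 sample. The interaction, at 0, called 20 with array weights and 0 to 30 without 1 sample, and the comparison of unligated arteries called 0 in every fit.

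With the title number as a replicate block, 25 genes were called by flow under saline, 0 by flow under 5Aza, 0 between ligated arteries and 0 in the other comparisons. Same-numbered samples correlated at -0.09 to 0.15 in their deviations from the group means, and LCA with RCA within a treatment at -0.03 to 0.06. With 3 pools per group these values cannot show whether equal numbers are the same mice, so the pairing is unknown. For Lyz1, the log2 difference between ligated arteries, -0.25, became 0.03 without saline LCA 2 and 0.27 without saline LCA 4, with a range of -1.05 to 0.27 over the samples left out. The difference between unligated arteries, 0.76, became 0 with the replicate block and -0.03 without 5Aza RCA 3, with a range of -0.03 to 1.65.

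Over all genes, flow under saline called 1221 genes, but 616 with no filter, 3743 with array weights, 129 with only the compared groups, 276 with the block and 182 to 3467 without 1 sample. Flow under 5Aza called 48, but 5 with the filter on all 12 samples, 78 with an intensity trend, 156 with array weights, 4 with the block and 4 to 292 without 1 sample. Between ligated arteries 49 were called, but 20 with no filter, 1 with the filter on all 12 samples, 75 with an intensity trend, 2254 with array weights, 0 with only the compared groups or the block and 0 to 2378 without 1 sample. There median scaling gave 14 higher and 23 lower in place of 31 and 18. The interaction called 0, but 1 with no filter or an intensity trend, 847 with array weights and 0 to 1254 without 1 sample, and unligated arteries 0, but 1 with an intensity trend. The slide as a block was not run. No saline RCA array detected 12 of the 31 tested genes, whose differences are therefore bounds. Apart from the filters and the smaller fits, which change the genes or samples used, the cause was not tested.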
